A study of Homo sapiens with 9 samples.

Results

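The integrin subunits described here are 10 genes, 6 alpha chains (ITGAV, ITGA2, ITGA3, ITGA4, ITGA5 and ITGA6) and 4 beta chains (ITGB1, ITGB3, ITGB5 and ITGB8), found by gene symbol among the 61544 genes listed in the count files. They are part of the 26 integrin subunit genes listed there, and the other 16 are given after them. The 10 were picked with earlier results from these same libraries in view, so their values in all the comparisons are a description and carry no test.

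The RNA came from HMC3 cells, an immortalized human microglial cell line, labelled wild type in every group. Cells were given SLO, a cocktail of the autophagy inhibitor SBI-0206965, the DNA glycosylase inhibitor O-151 and Lopinavir, a drug that blocks Lamin A maturation, for 6 consecutive days. The full dose (SLO) was 10 μM SBI-0206965, 1 μM O-151 and 1 μM Lopinavir, the lower dose (SLO ½) was 5 μM of the first and 0.5 μM of each of the others, and control cells (VEH) received the same amount of the solvent DMSO. Each group had 3 libraries, and the comparisons asked how each dose differed from VEH and how the doses differed from each other. All 9 libraries come from 1 cell line grown on gelatin-coated plastic, and the labels do not say whether replicates were separate cultures, so the errors and p-values measure only the spread between these libraries, which may be technical. In bulk RNA, fewer cells that express a gene and less of its RNA per cell cannot be told apart.

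Integrins are receptors in the plasma membrane, each made of 1 alpha and 1 beta chain, that bind proteins of the extracellular matrix or of other cells and connect them through talin and kindlin to the actin cytoskeleton. The pairing sets the ligand: αV with β1, β3, β5, β6 or β8 and α5β1 recognize the RGD tripeptide of fibronectin, vitronectin and related proteins, α1β1, α2β1, α10β1 and α11β1 bind collagens, and α3β1, α6β1 and α7β1 bind laminins. αVβ8 and αVβ6 also bind the latent form of TGF-β and release the active cytokine, and microglia in tissue are known for αMβ2 (CD11b/CD18), the complement receptor.

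The libraries held 14834295 to 19674841 reads on genes, with medians of 16209823 in VEH, against 17390449 in SLO ½ and 16231391 in SLO. Of the genes listed, 14727 had enough counts to be tested with edgeR's quasi-likelihood test, in which a gene was called at a Benjamini-Hochberg adjusted p below 0.05. Many genes differed between the groups: 64.9% of tested genes were called in SLO against VEH, 52.0% in SLO ½ against VEH and 41.1% in SLO against SLO ½. Of 10 markers of microglia and macrophages, 7 had at most 3 counts in every library, P2RY12 and C1QA had 0 counts in all 9, and only CSF1R and TREM2 had enough counts to be tested. The summed level of these 10 markers was 1.46 to 2.52 TPM (a level scaled for gene length and library size) in VEH, 3.97 to 6.16 TPM in SLO ½ and 4.73 to 4.75 TPM in SLO. The 5 markers of fibroblasts and pericytes, led by COL1A1, summed to 1415 to 1647 TPM in VEH, 1689 to 1721 TPM in SLO ½ and 1996 to 2084 TPM in SLO. COL1A1 carried the sum, with a mean of 1237, 1350 and 1719 TPM in this order. THY1 came next, at 179.7, 273.4 and 233.7 TPM, while PDGFRB was at 60.2, 41.1 and 49.2 TPM and COL1A2 at 41.5, 37.6 and 48.9 TPM. LUM had at most 4 counts in a library and was not tested. Their part in the integrin values was not tested.

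ITGB3 encodes the β3 chain, which pairs with αV in many adherent cells and with αIIb in platelets, and it lies on chromosome 17 from 47253827 to 47313743 on the plus strand of GRCh38. Its level was 11.9, 11.0 and 11.1 CPM (counts scaled by TMM to a common library size, and not divided by gene length) in the VEH libraries, 55.6, 53.5 and 52.7 CPM in the SLO ½ libraries and 144.9, 133.5 and 150.7 CPM in the SLO libraries. The groups did not overlap, with every SLO library above every SLO ½ library and every one of those above VEH. The log2 fold change was 2.25 ± 0.07 (SE, n = 3 per group) for SLO ½ and 3.66 ± 0.06 for SLO against VEH, or 4.76-fold and 12.6-fold, and 1.41 ± 0.05 between the doses. Among the 10 genes ITGB3 had the largest fold change in each of these comparisons. Of its exonic bases, 33.2% are shared with a protein-coding gene on the same strand (ENSG00000259753) that had 0 counts in every library; reads in a shared stretch are not counted for either gene, so the level of ITGB3 set against other genes may be too low.

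Markers of other cell types in which β3 is prominent had few reads. Of 4 osteoclast markers, OCSTAMP and DCSTAMP had 0 counts in all 9 libraries, and the list summed to 0 to 0.0712 TPM in VEH, 0.298 to 0.385 TPM in SLO ½ and 0.198 to 0.763 TPM in SLO. The 4 endothelial markers summed to 0.225 to 0.716 TPM in VEH, 1.41 to 1.68 TPM in SLO ½ and 1.38 to 2.01 TPM in SLO, of which VWF was the only one with enough counts to be tested.

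ITGB8, the β8 chain, moved the other way. It lies on chromosome 7 from 20330702 to 20415754 on the plus strand. Its level was 109.8, 123.3 and 121.2 CPM in VEH, 55.3, 54.0 and 53.4 CPM in SLO ½ and 49.5, 48.3 and 55.6 CPM in SLO. All 6 treated libraries were below the 3 VEH libraries, while the ranges of the doses overlapped. Against VEH, the log2 fold change was -1.12 ± 0.05 for SLO ½ and -1.21 ± 0.05 for SLO. Between the doses the difference was -0.09, with a 95% interval from -0.20 to 0.03, and SLO ½ had 92.8% of the log2 change of SLO, where for ITGB3 it had 61.6%.

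ITGB5, the β5 chain, which with αV binds vitronectin, lies on chromosome 3 from 124761948 to 124901418 on the minus strand. Its level was 36.1, 39.9 and 38.9 CPM in VEH, 49.2, 47.4 and 51.7 CPM in SLO ½ and 58.7, 58.0 and 57.1 CPM in SLO. The 3 groups were stepped without overlap, by much less than for ITGB3. ITGB5 had a log2 fold change of 0.37 ± 0.05 for SLO ½, 0.60 ± 0.05 for SLO and 0.23 ± 0.05 between the doses.

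ITGB1 encodes β1, the shared partner of 12 alpha chains, and lies on chromosome 10 from 32887273 to 33005792 on the minus strand. Its level was 1252, 1231 and 1199 CPM in VEH, 1354, 1294 and 1376 CPM in SLO ½ and 1383, 1294 and 1393 CPM in SLO. Treated libraries were above VEH without overlap, but by a small step, and the doses overlapped. The log2 fold change was 0.13 ± 0.04 for SLO ½ and 0.14 ± 0.04 for SLO, or 1.09-fold and 1.10-fold, and the difference between the doses was 0.02 with a 95% interval from -0.07 to 0.10. The call of SLO ½ was lost without SLO ½ replicate 3, where the log2 fold change was 0.11.

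Compared by TPM, which sets genes of unequal length on 1 scale, the mix of beta chains that can pair with αV shifted with dose. ITGB3 took 12.7%, 10.8% and 11.1% of the summed TPM of β3, β5, β6 and β8 in the VEH libraries, 43.8%, 43.7% and 42.0% in SLO ½ and 65.0%, 63.5% and 65.6% in SLO. The share of ITGB8 was 50.3% ± 0.87 (SD, n = 3) in VEH, against 18.2% ± 0.33 in SLO ½ and 9.68% ± 0.41 in SLO. The share of ITGB5 was 37.96% ± 0.24, 38.5% ± 1.39 and 25.6% ± 1.36 in the same order, although its own level was highest in SLO. In TPM, ITGB8 was thus the leading chain of this set in every VEH library, and ITGB3 in every treated library. The ratio of ITGB3 to ITGB8 in TPM went from 23.02% ± 2.45 in VEH up to 237.7% ± 2.30 in SLO ½ and 669.3% ± 26.7 in SLO. The lead of ITGB3 in SLO ½ rests on the scaling for gene length, whose lengths are not given in the sources used here: in CPM, ITGB3 was above ITGB8 in 1 of the 3 SLO ½ libraries, and the ratio was 9.63% ± 1.03, 99.4% ± 0.96 and 280.0% ± 11.2 for VEH, SLO ½ and SLO. On both scales ITGB8 was higher in every VEH library and ITGB3 in every SLO library.

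**Figure D1:**
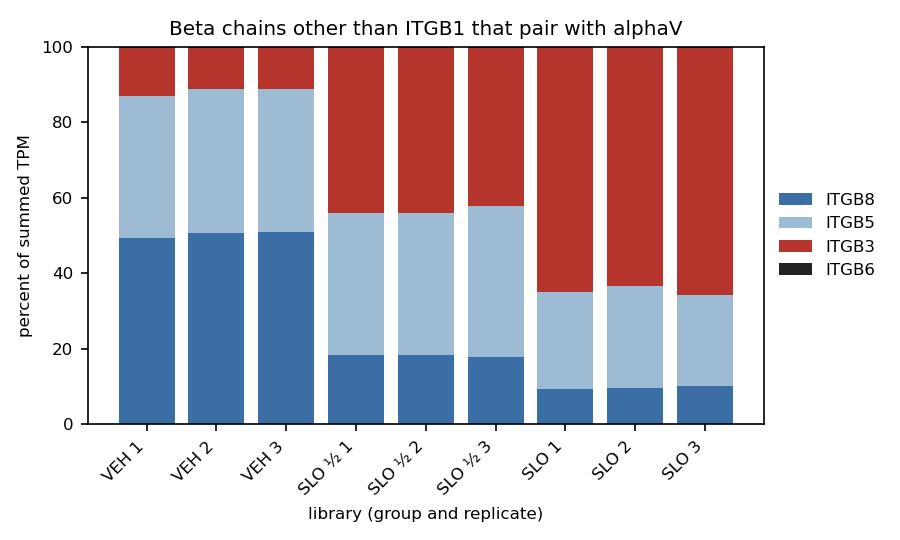
Stacked bars of the percent of summed TPM of ITGB8, ITGB5, ITGB3 and ITGB6 in each of the 9 libraries, 1 bar per library, with ITGB6 too low to be seen. ITGB8 makes up 49.3% to 50.9% of each VEH bar, and ITGB3 makes up 63.5% to 65.6% of each SLO bar.

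With ITGB1 added, β1 still made up most of the beta chain RNA, at 84.5% ± 0.80 of the summed TPM of β1, β3, β5, β6 and β8 in VEH, against 82.4% ± 0.28 in SLO ½ and 72.8% ± 0.24 in SLO. ITGB3 went from 1.79% ± 0.07 to 7.61% ± 0.30 and 17.6% ± 0.39 of that sum. The step of the β1 share from VEH to SLO ½ depended on the scaling for length: with CPM in place of TPM it was 88.0% in VEH, against 89.5% in SLO ½ and 84.3% in SLO.

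ITGAV encodes αV, the only alpha chain that β5, β6 and β8 take, and lies on chromosome 2 from 186590056 to 186680901 on the plus strand. Its level was 266.9, 276.3 and 250.2 CPM in VEH, 371.8, 360.7 and 370.6 CPM in SLO ½ and 492.8, 518.6 and 550.2 CPM in SLO. The groups were stepped with no overlap. The log2 fold change was 0.48 ± 0.04 for SLO ½, 0.98 ± 0.04 for SLO and 0.50 ± 0.04 between the doses, so SLO ½ had 48.7% of the log2 change of SLO. In TPM, the summed β3, β5, β6 and β8 came to 48.2% ± 3.21 of αV in VEH, against 44.1% ± 0.18 in SLO ½ and 55.1% ± 3.14 in SLO, while β3 alone went from 5.56% ± 0.33 to 19.0% ± 0.52 and 35.7% ± 2.37 of αV.

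ITGA5, the α5 chain of the fibronectin receptor α5β1, lies on chromosome 12 from 54395261 to 54419266 on the minus strand. Its level was 93.7, 94.0 and 91.7 CPM in VEH, 133.0, 133.8 and 132.6 CPM in SLO ½ and 121.0, 119.5 and 116.3 CPM in SLO. The highest values were those of SLO ½, with no overlap between any of the groups. Its log2 fold change was 0.52 ± 0.04 for SLO ½ and 0.35 ± 0.04 for SLO, and SLO was lower than SLO ½ by a log2 difference of -0.16 ± 0.04. αV and α5, both RGD-binding, therefore had opposite steps from SLO ½ to SLO.

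The promoters of the αV and α5 genes, which rose, and of the β8 gene, which fell, are printed as examples of genes of this family that moved in opposite directions. They are RefSeq windows on GRCh38.p14, 250 bases before to 50 bases after the annotated start, at chr2:186589806-186590105 on the plus strand for ITGAV, chr12:54419217-54419516 on the minus strand for ITGA5 and chr7:20330650-20330949 on the plus strand for ITGB8. Capitals mark matches on either strand to AP-1 (TGANTCA), CRE (TGACGTCA), SMAD (GTCTAGAC), TEAD (GGAATG) or the GC box (GGGCGG).
ITGAV: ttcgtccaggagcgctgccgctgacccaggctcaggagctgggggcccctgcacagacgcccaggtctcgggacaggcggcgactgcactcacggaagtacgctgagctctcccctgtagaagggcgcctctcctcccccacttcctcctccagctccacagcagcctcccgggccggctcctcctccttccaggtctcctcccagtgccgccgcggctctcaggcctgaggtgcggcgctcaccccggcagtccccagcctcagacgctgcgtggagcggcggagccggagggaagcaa
ITGA5: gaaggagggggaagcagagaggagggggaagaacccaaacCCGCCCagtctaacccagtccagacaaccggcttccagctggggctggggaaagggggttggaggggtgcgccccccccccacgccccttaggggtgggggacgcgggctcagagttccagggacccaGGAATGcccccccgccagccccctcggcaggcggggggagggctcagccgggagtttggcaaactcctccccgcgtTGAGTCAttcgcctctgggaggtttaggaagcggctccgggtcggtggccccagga
ITGB8: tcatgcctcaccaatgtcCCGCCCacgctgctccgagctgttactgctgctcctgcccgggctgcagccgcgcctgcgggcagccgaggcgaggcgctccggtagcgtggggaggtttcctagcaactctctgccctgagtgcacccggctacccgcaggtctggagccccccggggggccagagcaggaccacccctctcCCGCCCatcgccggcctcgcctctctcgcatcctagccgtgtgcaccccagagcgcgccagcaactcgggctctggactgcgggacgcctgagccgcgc
The ITGAV window held no match. The ITGA5 window held a GC box at -210, a TEAD match at -82 and an AP-1 match at -6 from the start, and the ITGB8 window held GC boxes at -232 and -49. Of the 10 genes, 8 had a promoter in the table, which leaves ITGB3 and ITGA3. Some genes have more than 1 start, and the 8 have 13 windows in all. A GC box was found in 9 of the 13 windows, from ITGA2, ITGA5, ITGA6, ITGB1, ITGB5 and ITGB8, and in 44.95% of all 35116 promoter windows. A TEAD match was found in 2 of the 13 (ITGA5 and ITGB1) and in 14.03% of all, and an AP-1 match in 1 of the 13 (ITGA5) and in 7.71% of all. None of the 13 held a CRE or SMAD match, which 1.85% and 0.202% of all windows held. No match overlapped one of another motif, and a match of letters is a description and not a binding site.

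ITGA3, the α3 chain of the laminin receptor α3β1, lies on chromosome 17 from 50055968 to 50090481 on the plus strand. Its level was 284.8, 296.4 and 294.4 CPM in VEH, 347.8, 354.5 and 364.2 CPM in SLO ½ and 331.9, 333.9 and 335.5 CPM in SLO. As for ITGA5, SLO ½ was highest and the groups did not overlap. For ITGA3 the log2 fold change was 0.29 ± 0.04 for SLO ½ and 0.19 ± 0.04 for SLO. Between the doses the difference was -0.09 ± 0.04, with a 95% interval from -0.17 to -0.01, and it was not called in the fit across all genes, whereas it was called with a replicate block or with these groups alone.

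ITGA6, the α6 chain, which pairs with β1 or β4 and binds laminins, lies on chromosome 2 from 172427354 to 172506459 on the plus strand. Its level was 110.8, 116.6 and 127.8 CPM in VEH, 136.2, 125.3 and 136.8 CPM in SLO ½ and 120.0, 117.1 and 121.1 CPM in SLO. Both treated ranges overlapped that of VEH, which was wide, and SLO was below SLO ½ in every library. For ITGA6 the log2 fold change was 0.16 ± 0.05 for SLO ½ and was called, though not without VEH replicate 1 (0.11). For SLO against VEH it was 0.01 with a 95% interval from -0.09 to 0.11. It was not called, and its sign changed with the library left out, from -0.04 to 0.07. SLO was lower than SLO ½ by -0.15 ± 0.05, a call that was lost without SLO ½ replicate 1 (-0.14) or 3 (-0.13).

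The other alpha chains of the 10 had few reads. ITGA2, the α2 chain of the collagen receptor α2β1, lies on chromosome 5 from 52989340 to 53094779 on the plus strand and had 2.73, 3.74 and 3.76 CPM in VEH, 5.28, 5.43 and 4.67 CPM in SLO ½ and 5.15, 6.24 and 6.38 CPM in SLO. All treated libraries were above VEH, and the doses overlapped. On the log2 scale the fold change was 0.58 ± 0.16 for SLO ½ and 0.79 ± 0.15 for SLO, and the difference between the doses was 0.20 with a 95% interval from -0.08 to 0.49.

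ITGA4, the α4 chain, which with β1 binds VCAM1 and fibronectin, lies on chromosome 2 from 181457202 to 181538940 on the plus strand and had 33 to 63 counts in a library. Its level was 3.05, 4.14 and 2.46 CPM in VEH, 2.33, 1.94 and 2.64 CPM in SLO ½ and 2.00, 1.94 and 2.53 CPM in SLO. VEH replicate 2 was the highest library, and both treated ranges overlapped that of VEH. The log2 fold change was -0.56 ± 0.21 for SLO, which was called, and -0.46 ± 0.20 for SLO ½, which was not. The call for SLO was lost without VEH replicate 2 (-0.35), SLO replicate 1 (-0.51) or SLO replicate 2 (-0.49), and SLO ½ was called without VEH replicate 3 (-0.64) or SLO ½ replicate 3 (-0.57), so at this depth the libraries did not settle whether ITGA4 was lower.

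**Figure D2:**
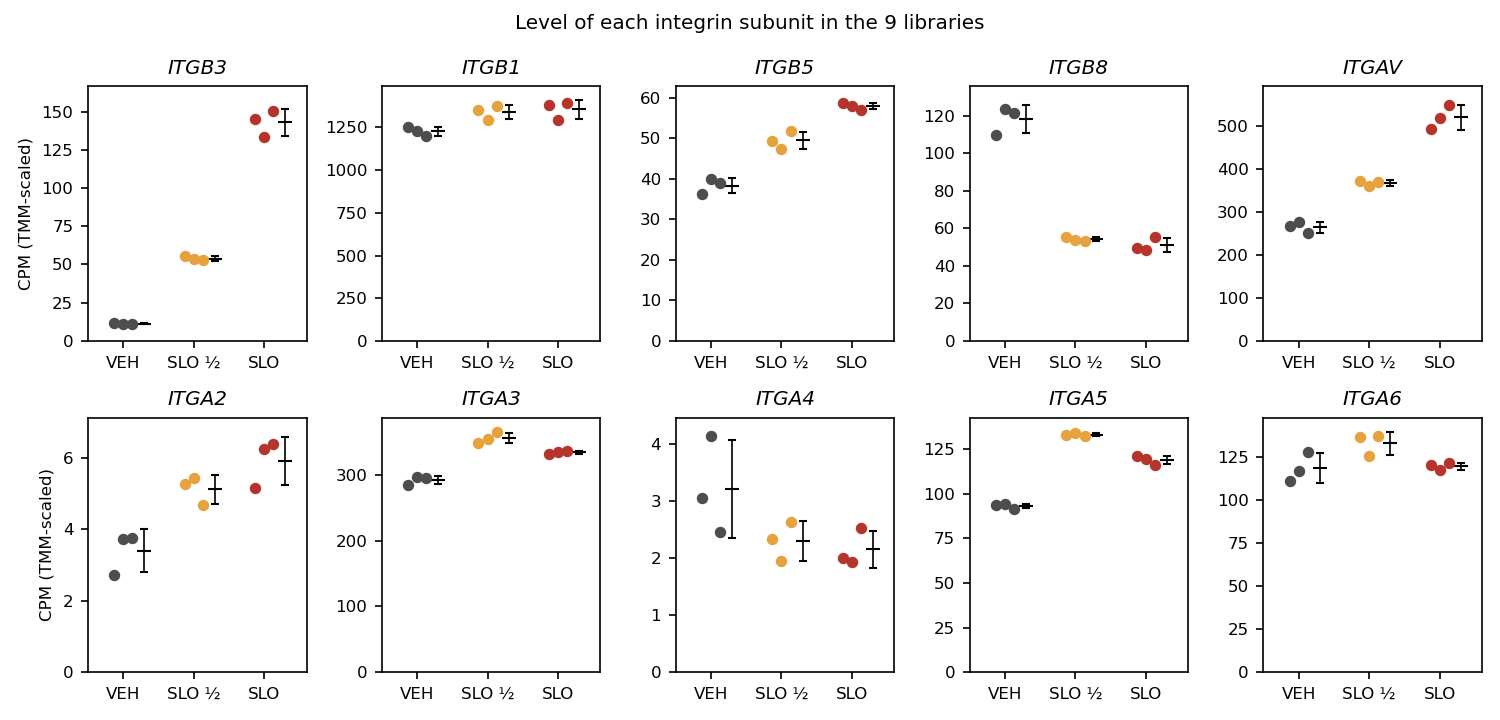
Level of each of the 10 subunits in CPM after TMM scaling, 1 point per library and 1 panel per gene with its own axis from 0, with the mean and SD (n = 3) beside the points of each group. ITGB3 steps up from 11.0 to 11.9 CPM in VEH to 133.5 to 150.7 CPM in SLO, ITGB8 is lower in all 6 treated libraries, and ITGA3, ITGA5 and ITGA6 are highest in SLO ½.

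Across the 10 genes, 9 were called in SLO against VEH, 7 higher and 2 lower, where 64.9% of all tested genes were called (32.9% higher and 32.1% lower), and 8 had no overlap between the groups, where 66.7% of all tested genes had none. In SLO ½ against VEH 9 were called, 8 higher and 1 lower, beside 52.0% of all genes (26.7% higher and 25.3% lower), and 8 did not overlap, beside 58.3%. In SLO against SLO ½ 5 were called, 3 higher (ITGB3, ITGB5 and ITGAV) and 2 lower (ITGA5 and ITGA6), beside 41.1% of all genes (20.8% higher and 20.3% lower), and 6 did not overlap, beside 51.0%. The comparisons with VEH share its libraries, and since the genes were picked with these values known, nothing is read from the counts. The median log2 fold change of the 10 was 0.27 for SLO and 0.33 for SLO ½ against VEH, beside 0.01 and 0.02 over all tested genes.

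In TPM, ITGB1 had the highest mean of all 26 subunits in every group, at 396.5 ± 6.76 (SD, n = 3) in VEH, against 421.1 ± 19.6 in SLO ½ and 436.1 ± 17.7 in SLO. ITGAV came next (151.4, 204.5 and 296.4 TPM), followed by ITGA3 (140.1, 165.8 and 159.4 TPM). ITGB3 moved from rank 11 of 26 in VEH, with 8.40 TPM, to rank 6 in SLO ½, with 38.9 TPM, and rank 4 in SLO, with 105.6 TPM, where it stood above ITGA6 (83.7 TPM) and ITGA5 (75.4 TPM). ITGB8 moved from rank 6, with 36.7 TPM, to rank 10 at both doses, with 16.4 TPM in SLO ½ and 15.8 TPM in SLO. Among the 10, neighbours in this order were apart in every library of each group, except ITGA2 (2.03 TPM) and ITGA4 (1.42 TPM), which overlapped in VEH.

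The 16 other subunits complete the family, and 8 of them had enough counts for the test. ITGA1, the α1 chain of the collagen receptor α1β1, rose most: its level was 9.08, 8.93 and 8.30 CPM in VEH, 27.1, 28.1 and 27.3 CPM in SLO ½ and 60.5, 55.0 and 61.7 CPM in SLO. The groups were far apart, with a log2 fold change of 1.65 ± 0.08 for SLO ½ (edgeR, adjusted p = 2.57e-16), 2.75 ± 0.07 for SLO (adjusted p = 4.52e-23) and 1.10 ± 0.06 between the doses (adjusted p = 1.41e-14). ITGA11, the α11 chain, which binds fibrillar collagen and is known from fibroblasts, had 29.5, 30.3 and 21.2 CPM in VEH, 57.3, 61.9 and 65.3 CPM in SLO ½ and 95.04, 93.77 and 103.9 CPM in SLO. It too rose at each step without overlap, by a log2 fold change of 1.20 ± 0.08 for SLO ½ (edgeR, adjusted p = 5.37e-13) and 1.87 ± 0.08 for SLO (adjusted p = 3.09e-18). Of the exonic bases of ITGA1, 2.69% are shared with PELO on the same strand, a gene with up to 713 counts in a library.

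ITGA7, a laminin-binding chain known from muscle, rose by 0.21 ± 0.06 in SLO ½ (edgeR, adjusted p = 0.00469) and 0.38 ± 0.06 in SLO (adjusted p = 1.93e-06). ITGA2B, the platelet αIIb chain that pairs with β3, fell in SLO, with a log2 fold change of -0.95 ± 0.18 (edgeR, adjusted p = 3.86e-05), and was at -0.18 ± 0.16 in SLO ½ (adjusted p = 0.347). Its counts were 58 to 72 for VEH, 58 to 62 for SLO ½ and 28 to 42 for SLO, so the partner of β3 in platelets went down in SLO while ITGB3 went up. The platelet markers PF4, PPBP and GP9 had 0 counts in every library, and the 6 platelet markers, which include ITGA2B, summed to 3.16 to 3.59 TPM in VEH, 2.61 to 3.26 TPM in SLO ½ and 1.62 to 2.72 TPM in SLO. The 4 epithelial markers, led by KRT18, summed to 481.7 to 539.2 TPM in VEH, 498.0 to 500.9 TPM in SLO ½ and 340.5 to 356.2 TPM in SLO. Nearly all of this was KRT18, with a mean of 489.5, 474.1 and 330.5 TPM in this order, while KRT8 was at 14.2, 24.0 and 17.2 TPM. EPCAM had at most 9 and CDH1 at most 13 counts in a library, too few to be tested. ITGB4, the β4 chain that pairs with α6 in epithelia, had 11.2, 6.37 and 7.36 CPM in VEH, 8.23, 7.78 and 7.25 CPM in SLO ½ and 9.63, 11.1 and 10.8 CPM in SLO. Its groups overlapped in SLO against VEH, and its log2 fold change of 0.34 ± 0.14 (edgeR, adjusted p = 0.0314) lost its call without VEH replicate 2 (0.19), VEH replicate 3 (0.24), SLO replicate 2 (0.30) or SLO replicate 3 (0.32), and with DESeq2 or limma, and was 0.60 without VEH replicate 1. Between the doses ITGB4 was higher in SLO without overlap, by 0.43 ± 0.14 (edgeR, adjusted p = 0.0118), a call that was lost without SLO ½ replicate 3 (0.39), without SLO replicate 2 (0.39) and with limma.

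ITGA10, ITGAE and ITGB2 were not called in any comparison. ITGA10 had only 10 to 18 counts in a library. ITGAE, the αE chain known from T cells in epithelia, was at 0.18 ± 0.09 in SLO ½ (edgeR, adjusted p = 0.071) and 0.08 ± 0.09 in SLO (adjusted p = 0.4). ITGB2, the β2 chain of leukocyte integrins, had 4 to 6 counts in a VEH library, 8 to 13 in one of SLO ½ and 7 to 10 in one of SLO, at a log2 fold change of 0.94 ± 0.42 for SLO ½ (edgeR, adjusted p = 0.0617) and 0.88 ± 0.43 for SLO (adjusted p = 0.0733). The other 8 (ITGA8, ITGA9, ITGAD, ITGAL, ITGAM, ITGAX, ITGB6 and ITGB7) had at most 9 counts in any library and were not tested. ITGAM, the αM chain of CD11b, had 0, 0 and 2 counts in VEH, 3, 4 and 3 in SLO ½ and 7, 3 and 1 in SLO. The RNA of αMβ2, which is prominent in microglia, was therefore near the limit of detection in this line in all groups. In all, 4 of the 8 tested subunits rose and 1 fell in SLO against VEH, and 3 rose and 0 fell in SLO ½ against VEH, which is 62.5% and 37.5% called, beside 64.9% and 52.0% of all genes.

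**Figure D3:**
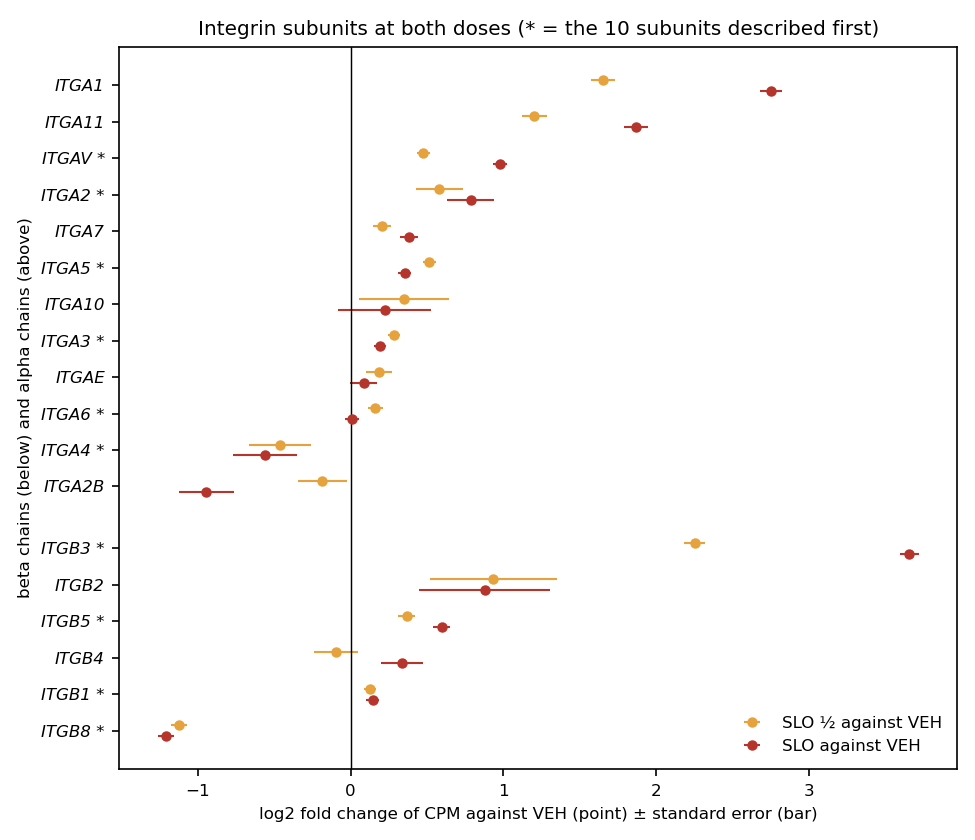
Log2 fold change of CPM against VEH (point) with its standard error (bar) for the 18 integrin subunits that were tested, alpha chains above and beta chains below, with SLO ½ in orange and SLO in red and an asterisk at the 10 subunits described first. ITGB3 (3.66) and ITGA1 (2.75) lie farthest to the right in SLO and ITGB8 (-1.21) farthest to the left.

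Summed by the ligand that the alpha chains bind, collagen-binding chains (α1, α2, α10 and α11) had the largest ratio to VEH, from 17.1, 18.2 and 14.2 TPM in VEH to 34.8, 36.2 and 37.95 TPM in SLO ½ and 59.98, 58.6 and 64.8 TPM in SLO. This was 3.70 times the VEH mean in SLO and 2.20 times in SLO ½, and ITGA11 held most of the sum. RGD-binding chains (αV, α5, α8 and αIIb) summed to 214.0 ± 8.21 TPM in VEH (SD, n = 3), 289.7 ± 7.59 TPM in SLO ½ and 373.5 ± 14.6 TPM in SLO, the largest difference in TPM of the classes. Laminin-binding chains (α3, α6 and α7) summed to 238.8 ± 9.46 TPM, 273.8 ± 10.1 TPM and 262.8 ± 1.30 TPM. Laminin-binding chains were thus the larger class in VEH, at 49.6% ± 1.74 of all alpha chain TPM against 44.5% ± 1.41 for RGD-binding chains, and RGD-binding chains were the larger class in SLO, at 52.6% ± 0.70 against 37.1% ± 0.87. The sum of α4 and α9 was 1.43 ± 0.38 TPM in VEH, 1.00 ± 0.16 TPM in SLO ½ and 0.97 ± 0.12 TPM in SLO, and the 5 leukocyte alpha chains, nearly all ITGAE, summed to 10.5 ± 0.56, 11.7 ± 0.36 and 11.2 ± 0.94 TPM. These sums include the members and so are given without a test.

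**Figure D4:**
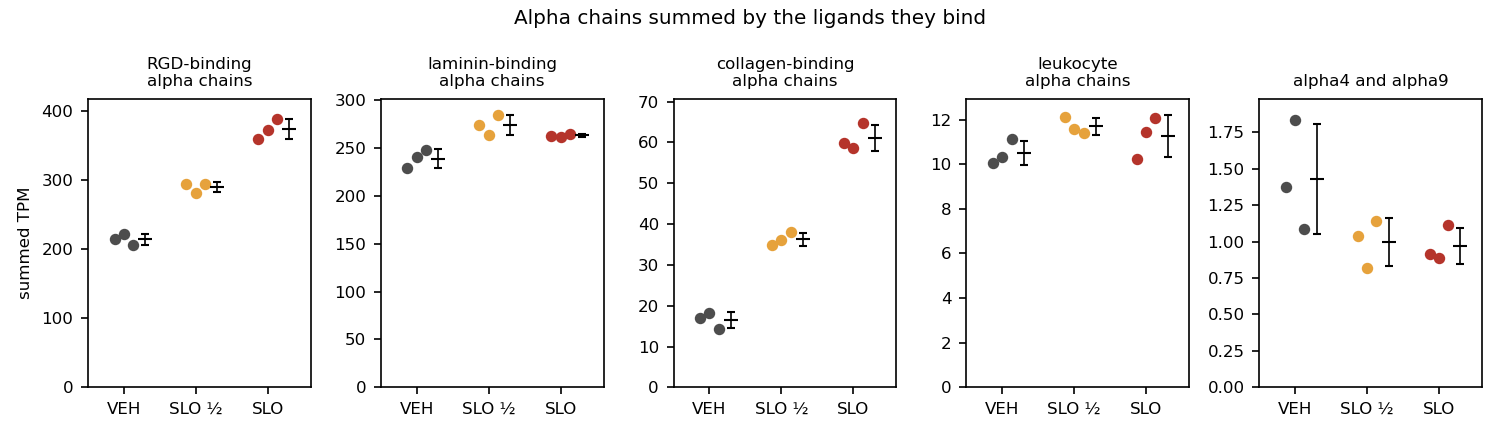
Summed TPM of the alpha chains in 5 classes by ligand, 1 point per library and 1 panel per class with its own axis from 0, with the mean and SD (n = 3) beside the points of each group. The collagen-binding class steps up from 14.2 to 18.2 TPM in VEH to 58.6 to 64.8 TPM in SLO, and the laminin-binding class stays between 228.8 and 283.8 TPM in all 9 libraries.

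In TPM, β1 rose less than the summed alpha chains that can pair with it. The sum of the 12 alpha chains that pair with β1 went from 467.4 ± 10.4 TPM in VEH to 597.9 ± 17.8 TPM in SLO ½ and 696.7 ± 18.3 TPM in SLO. β1 came to 84.9% ± 2.42 of that sum in VEH, against 70.4% ± 1.29 in SLO ½ and 62.6% ± 2.61 in SLO, with no overlap between the groups. That sum includes αV, which also pairs with other beta chains and went from 151.4 to 204.5 and 296.4 TPM. The rise of αV thus lowers the β1 percentage at each step. The percentage without αV was not computed, so no fall with dose apart from that of αV is read from it. These percentages also rest on the scaling for gene length, whose lengths are not given. The sum of all 8 beta chains went from 475.5 ± 6.16 TPM to 517.0 ± 22.4 and 607.0 ± 24.6 TPM.

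The genes whose pattern over the 9 libraries was most like that of ITGB3 were looked for among the 10876 tested genes whose mean log2 CPM reached 2, by the root mean square (RMS) difference of log2 CPM after the VEH mean of each gene was taken off. The nearest 5 were CDH6, a cadherin (RMS 0.172), JAG1, a Notch ligand (0.266), DACT1 (0.352), HTRA1, a secreted protease (0.391), and ACTA2, smooth muscle actin (0.411). CDH6 went from 2.41 CPM in VEH to 12.2 CPM in SLO ½ and 29.0 CPM in SLO, and JAG1 from 20.1 to 126 and 237 CPM. For ITGB8 the nearest 5 were KLF12 (RMS 0.092), BBS9 (0.122), DYNC2H1 (0.127), EPB41 (0.133) and ZNF395 (0.144). KLF12, a transcription factor, went from 88.5 CPM in VEH to 42.1 and 37.3 CPM, and DYNC2H1, the motor of transport within cilia, from 76.2 to 36.8 and 33.8 CPM. These genes were picked for being alike, so no test is attached to them.

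The pathway around the integrins was read from 8 lists of 120 genes in all, of which 110 were tested: 68 were higher and 21 lower in SLO against VEH, and 64 higher and 15 lower in SLO ½ against VEH. Of the genes tested, these are 80.9% for SLO and 71.8% for SLO ½, beside 64.9% and 52.0% of all genes. The lists were chosen with earlier results of these data known. Genes named from them were picked by the size or p-value of their change in SLO against VEH, or after their values were seen where so marked. The counts and p-values of the lists are therefore a description and carry no test of the pathway. In the list of RGD and related ligands, 11 of 18 tested genes rose and 5 fell in SLO, 88.9% of the list, beside 64.9% of all genes. This list also holds LRRC32, which binds latent TGF-β and is counted among the 11. FBN1, the fibrillin of microfibrils, was at 162.5, 203.6 and 163.4 CPM in VEH, 589.9, 561.0 and 528.6 CPM in SLO ½ and 754.8, 808.3 and 788.1 CPM in SLO, a log2 fold change of 1.67 ± 0.06 for SLO ½ and 2.15 ± 0.06 for SLO (edgeR, adjusted p = 3.43e-19 and 1.79e-22). MFGE8, a bridge between phosphatidylserine on dying cells and αVβ3 or αVβ5, rose by 1.26 ± 0.04 and 1.74 ± 0.04 (edgeR, adjusted p = 2.47e-20 and 2.94e-24), without overlap of the groups.

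VTN (vitronectin) and NPNT (nephronectin, a ligand of α8β1) rose from 0.52 to 0.70 and 0.20 to 0.83 CPM in VEH to 4.88 to 5.25 and 6.71 to 7.31 CPM in SLO, with a log2 fold change of 3.07 ± 0.25 and 3.56 ± 0.24 (edgeR, adjusted p = 7.5e-12 and 1.03e-13). LTBP1 and LRRC32, which hold latent TGF-β in the matrix and on the cell surface, rose by 1.51 ± 0.10 and 2.49 ± 0.30 in SLO (edgeR, adjusted p = 3.42e-14 and 2.08e-08). LRRC32 had few reads, with 5, 7 and 7 counts in VEH and 32, 42 and 31 counts in SLO. SPP1 (osteopontin) was called higher at both doses, but with 0, 1 and 2 counts in VEH and 11, 12 and 12 counts in SLO. The ligands that fell include FN1 (fibronectin), chosen after its values were seen, with 22800, 23590 and 20330 CPM in VEH, 16920, 16010 and 16220 CPM in SLO ½ and 11630, 12350 and 12440 CPM in SLO. FN1 fell by 0.44 on the log2 scale in SLO ½ and by 0.87 in SLO (edgeR, adjusted p = 1.28e-08 and 3.04e-15), with the groups apart at each step, while ITGA5 and ITGAV, chains of its receptors, were higher at both doses. TNC (tenascin C), also chosen after its values were seen, was at 0.04 ± 0.05 in SLO ½ (edgeR, adjusted p = 0.53) and fell by 0.98 in SLO (adjusted p = 3.17e-15).

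Of 8 tested collagen genes whose products bind integrins, 8 rose and 0 fell in SLO, and 7 rose in SLO ½, with a median log2 fold change of 0.74 and 0.72. The share called of the collagen genes was 100% and 87.5%, beside 64.9% and 52.0% of all genes. COL4A1, a chain of basement membrane collagen, was at 360.1, 376.4 and 302.0 CPM in VEH, 650.1, 675.0 and 689.9 CPM in SLO ½ and 904.3, 853.3 and 979.5 CPM in SLO, a log2 fold change of 1.40 ± 0.06 in SLO (edgeR, adjusted p = 2.22e-18). COL5A1, a fibrillar collagen, rose by 1.55 ± 0.07 (edgeR, adjusted p = 1e-17). Of 11 laminin chains, 7 rose and 0 fell in SLO, and 8 rose in SLO ½, with a median of 0.81 and 0.74. The share called was 63.6% in SLO, close to the 64.9% of all genes, and 72.7% in SLO ½, beside 52.0%, where 5 rather than 8 were called with limma on TPM without a filter. LAMA5 rose by 0.95 ± 0.10 and 1.46 ± 0.10 in SLO ½ and SLO (edgeR, adjusted p = 6.55e-09 and 1.35e-13), whereas LAMA1, at 1.72 to 3.75 CPM in VEH, was at 0.34 ± 0.21 in SLO ½ (adjusted p = 0.183) and rose by 1.80 ± 0.18 in SLO (adjusted p = 3.61e-10).

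Of 10 integrin activators, 6 rose and 1 fell in SLO, and 5 rose and 2 fell in SLO ½, 70% at each dose, beside 64.9% and 52.0% of all genes. TLN2, the second talin, was at 22.9, 25.3 and 21.0 CPM in VEH, 34.8, 33.5 and 32.5 CPM in SLO ½ and 58.6, 59.5 and 56.1 CPM in SLO, a log2 fold change of 1.34 ± 0.06 in SLO (edgeR, adjusted p = 4.54e-17). TLN1, the more abundant talin, was named after its values were seen and is the 1 that fell in SLO. Its mean was 673.2 CPM in VEH, 602 CPM in SLO ½ and 582.3 CPM in SLO. Against VEH it fell by 0.16 ± 0.04 in SLO ½ and 0.21 ± 0.04 in SLO (edgeR, adjusted p = 0.00112 and 3.74e-05). FERMT3, the kindlin of blood cells, was called higher at 3 to 6 counts in a VEH library and 10 to 18 in an SLO library. FERMT2, a kindlin also named after its values were seen, rose from a mean of 382.8 CPM in VEH to 490.1 CPM in SLO ½ and 621.2 CPM in SLO. Of 8 inhibitors, 4 rose and 2 fell at each dose, 75% of the list at each, beside 64.9% of all genes for SLO and 52.0% for SLO ½. The SLO ½ count of 6 was 3 without VEH replicate 3 and 3 with limma on TPM, and 0 with limma on TPM without a filter. FLNA, a filamin, which competes with talin for beta chain tails, rose by 0.23 ± 0.04 in SLO (edgeR, adjusted p = 2.27e-05), and SIPA1L1, a GTPase activator for Rap, by 0.31 ± 0.05 (adjusted p = 5.58e-06).

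Of 30 tested adaptors and kinases of adhesion sites, 19 rose and 7 fell in SLO, and 18 rose and 5 fell in SLO ½, 86.7% and 76.7% of the list, beside 64.9% and 52.0% of all genes. The SLO ½ count of 23 was 13 with limma on TPM without a filter. LIMS2, a partner of integrin-linked kinase, rose by 0.76 ± 0.09 in SLO ½ and 1.22 ± 0.08 in SLO (edgeR, adjusted p = 2.22e-08 and 2.58e-13). TNS2 and TNS3, tensins that link beta chain tails to actin, fell: TNS2 was at 25.9 to 29.8 CPM in VEH, 15.5 to 16.2 CPM in SLO ½ and 9.56 to 11.7 CPM in SLO, with a log2 fold change of -1.40 ± 0.09 in SLO (edgeR, adjusted p = 1.58e-14), and TNS3 was at -1.09 ± 0.07 (adjusted p = 1.38e-13). ARHGEF6, an exchange factor for Rac, rose by 1.85 ± 0.34 in SLO (edgeR, adjusted p = 2.41e-05) on 4 to 31 counts. The others that fell in SLO, named after their values were seen, were LPP (-0.46 ± 0.06), TNS1 (-0.30 ± 0.06), VASP (-0.22 ± 0.05), PTK2 (-0.14 ± 0.04) and ILK, the integrin-linked kinase (-0.10 ± 0.04). The list as a whole had a median log2 fold change of 0.23 in SLO, so the genes that fell, TNS2 and TNS3 among them, went against most of it.

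Of 13 tested cell surface ligands and partners, 10 rose and 3 fell in SLO, and 9 rose and 1 fell in SLO ½. These are 100% and 76.9% of the list, beside 64.9% and 52.0% of all genes. CD9, a tetraspanin that associates with β1 integrins, was at 44.5, 42.7 and 47.5 CPM in VEH, 90.5, 86.7 and 89.2 CPM in SLO ½ and 100.2, 91.8 and 95.02 CPM in SLO, a log2 fold change of 1.09 ± 0.05 in SLO (edgeR, adjusted p = 3.18e-17). JAM2, a junctional adhesion molecule, rose by 1.54 ± 0.07 (edgeR, adjusted p = 3.18e-17), and ICAM1, a ligand of β2 integrins, by 1.59 ± 0.34 (adjusted p = 0.000142) on 5 to 24 counts. PLAUR, the urokinase receptor, which associates with integrins, was at 40.0, 42.1 and 46.5 CPM in VEH, 44.5, 43.0 and 44.4 CPM in SLO ½ and 21.1, 21.5 and 21.9 CPM in SLO. The SLO libraries stood below the others, with a log2 fold change of -1.0 ± 0.06 against VEH (edgeR, adjusted p = 6.27e-14) and -1.03 ± 0.06 against SLO ½ (adjusted p = 2.53e-13), while SLO ½ was at 0.03 ± 0.06 against VEH (adjusted p = 0.664). Of 12 tested genes of integrin traffic, 3 rose (RAB11FIP1, DAB2 and EHD1) and 3 fell in SLO, 50% of the list, beside 64.9% of all genes. In SLO ½ 3 rose and 2 fell, 41.7% of the list, beside 52.0% of all genes. The 3 that fell in SLO, named after their values were seen, were SNX17 (-0.25 ± 0.05), GGA3 (-0.13 ± 0.05) and NUMB (-0.13 ± 0.04). RAB11FIP1, an effector of the recycling GTPase Rab11, rose by 0.13 ± 0.05 in SLO ½ and 0.93 ± 0.05 in SLO (edgeR, adjusted p = 0.029 and 5.44e-16), DAB2, an adaptor of integrin endocytosis, by 0.34 ± 0.04 and 0.58 ± 0.04 (adjusted p = 2e-08 and 1.33e-13), and EHD1 by 0.51 ± 0.05 and 0.65 ± 0.05 (adjusted p = 1.73e-10 and 2.97e-13).

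**Figure D5:**
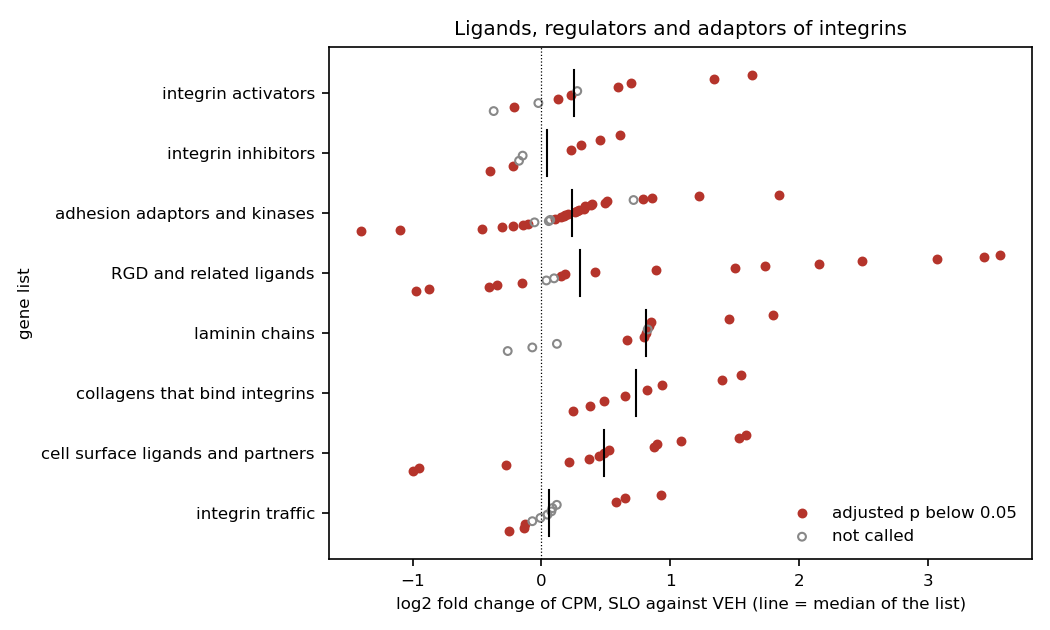
Log2 fold change of CPM in SLO against VEH for each tested gene of 8 lists around the integrins, filled red where called at an adjusted p below 0.05 and open where not, with a vertical line at the median of the list. The lines for laminin chains (0.81) and collagens (0.74) lie farthest to the right, and those of inhibitors (0.04) and integrin traffic (0.06) near 0.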

How the data were processed

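The authors made poly-A selected libraries (KAPA RNA HyperPrep) from HMC3 cells; the submitters' processing notes name Trimmomatic 0.38, STAR 2.7.1a and GRCh38. The deposited files hold, per library, counts of reads per gene as STAR counted them, not normalized, and TPM values computed by the authors, whose gene lengths are not given in the sources used here. STAR's 4 summary lines that name no gene, 18.0% to 20.1% of the reads, were left out of library sizes and tests. Here, with edgeR 4.0.16 in R 4.3.3, 14727 genes passed filterByExpr, were TMM-scaled and were tested by the quasi-likelihood test over all 9 libraries with group as the only term, adjusted by Benjamini-Hochberg over all tested genes and called below 0.05. SE is the log2 fold change divided by the root of F. The test was tried on simulated counts in which 200 genes were drawn to change, as many up as down. Of genes changed by a log2 fold change of 1, 90.9% were recovered for SLO against VEH (14478 genes run) and of those changed by 0.5, 72.7%, with 7 false calls. For SLO ½ against VEH (14481 genes run) these were 91.9%, 71.7% and 9, and between the doses (14491 genes run) 89.8%, 79.8% and 11. Far more genes were called in the data, so the simulation did not try the scaling under change that wide.

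TPM served for levels between genes. Genes were named by rule: all integrin subunits; in each list the genes with an absolute log2 fold change of at least 1 that were called in SLO against VEH, or otherwise the 3 with the smallest p; and the 5 genes most like ITGB3 and ITGB8. Of the genes this rule names, 1 is not reported here. The members and lists were chosen with earlier results of these data known. Alternatives were DESeq2 1.42.0, DESeq2 size factors, library size alone, no filter, a minimum of 10 counts per library, a fit restricted to the groups being compared, a replicate block, limma 3.58.1 on log2(TPM + 1) or log2(TPM + 0.1), and leaving out each library. Gene positions are those in the files, and overlaps came from GENCODE on GRCh38. Promoters are from RefSeq GRCh38.p14.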

Additional observations from a re-analysis of the deposited data

How the results depend on the processing

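The count of genes called stayed within 1.5 times its value under every alternative run, from 8634 to 9930 for SLO against VEH (9565 as reported), 6239 to 7749 for SLO ½ (7663) and 4321 to 6369 between the doses (6056). Members called ranged from 8 to 9, 6 to 10 and 4 to 6 in these comparisons. With each library left out in turn, 9015 to 9321, 6845 to 7245 and 5231 to 5543 genes were called, and 86 to 94, 74 to 79 and 60 to 66 of the other subunits and pathway genes. Scaling by library size alone moved the split of calls to 5624 higher and 3870 lower for SLO and to 4637 and 3049 for SLO ½ against VEH, and limma on log2(TPM + 1) moved it to 3280 and 4131 for SLO ½ and to 3202 and 2306 between the doses.

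The replicate numbers paired the samples weakly at most. The deviations of same-numbered libraries correlated at 0.003 to 0.087, and those of libraries with other numbers at -0.062 to 0.037. Only 3 libraries, those of replicate 2, were closest to their own number in both other groups. With a replicate block 9622, 7749 and 6162 genes, 9, 9 and 6 members and 94, 82 and 69 of the other subunits and pathway genes were called; ITGA3 between the doses was the member gained.

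The sign of ITGA6 in SLO against VEH changed without a filter (-0.01) and ranged from -0.042 to 0.068 with a library left out. With a library left out ITGB4 in SLO ½ ranged from -0.24 to 0.16, and between the doses ITGB1 ranged from -0.01 to 0.05, ITGA4 from -0.22 to 0.005 and ITGB2 from -0.17 to 0.042. With limma on TPM, the calls of ITGA4 in SLO, ITGB1 and ITGA6 in SLO ½ and ITGA6 between the doses were lost, and without a filter on TPM that of ITGA2 in SLO ½ as well; the cause was not tested. ITGB3, ITGB5, ITGB8, ITGAV, ITGA3 and ITGA5 kept their direction and call against VEH at both doses in all alternatives run.

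With CPM in place of TPM, which drops the scaling for length, the shares of the beta chains that pair with αV were, for VEH, SLO ½ and SLO, 88.0%, 89.5% and 84.3% for ITGB1, 0.812%, 3.599% and 8.88% for ITGB3, 2.75%, 3.30% and 3.604% for ITGB5 and 8.47%, 3.62% and 3.18% for ITGB8, and 0.0104% and 0.0167% for ITGB6 in VEH and SLO ½. Depth limits ITGA2, ITGA4, ITGA2B, ITGA10 and ITGB2, which had at most 106 counts in a library, and the 8 subunits that were not tested.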
